A study of Homo sapiens with 6 samples.

Results

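Cohesin sites that appeared both after treatment with inflachromene (ICM) and in replicative senescence were described in IMR90 cells, primary human lung fibroblasts. The sites were taken from CUT&Tag, in which an antibody tethers a transposase so that DNA is cut and tagged beside the bound protein, with an antibody against SMC1, a core subunit of cohesin. Peaks of the 3 SMC1 lists that overlapped by at least 1 bp on chromosomes 1 to 22 and X were merged into loci. Loci were chosen by the presence of a peak from ICM-treated cells and of a peak from senescent cells and by the absence of one from control cells, so the SMC1 measurements themselves defined the set. This gave 1472 of 22580 loci, a background share of 6.52% that the rule itself fixed. For comparison, 3629 loci were held by the control and ICM lists alone, 856 by the control and senescent lists alone, 8247 by all 3 lists, 2004 by the control list alone, 4136 by the ICM list alone and 2236 by the senescent list alone.

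CTCF and SMC1 were profiled in control, ICM-treated and senescent cells with 1 library for each antibody and condition. The SMC1 libraries carried the p number 16 for control, 16 for ICM and 34 for senescence in their titles, and the CTCF libraries 21, 16 and 34. The titles with the number 34 name no treatment and were read as the high-passage senescent sample of the series design, and 6 days of treatment are given for the CTCF library of ICM-treated cells alone. No library had a replicate, so conditions and single libraries cannot be told apart, and for CTCF the control also differed in its p number from the ICM-treated cells. Intervals of shares are exact (Clopper-Pearson) 95% intervals and those of medians come from binomial order statistics, and both cover counting over loci, peaks or windows and no variation between cultures. The SMC1 lists held 14883, 17809 and 12927 peaks in control, ICM-treated and senescent cells, and the CTCF lists 4673, 6728 and 8577. Read numbers were not in the lists, so depth is unknown here. Of 12 fibroblast marker genes, 6 had an SMC1 peak at their 5′ end in the control list, 6 in the ICM list and 4 in the senescent list, against 1, 0 and 2 of 10 epithelial, 1, 1 and 1 of 10 endothelial and 2, 2 and 1 of 10 immune markers.

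Cohesin is a ring-shaped complex that holds DNA strands together and extrudes chromatin loops. CTCF is a zinc finger protein that binds a defined DNA motif and halts extruding cohesin, so that many cohesin positions coincide with CTCF sites. Cohesin is also found at active promoters and enhancers, near the place where it is loaded. ICM is a small molecule that binds the chromatin proteins HMGB1 and HMGB2, and loss of nuclear HMGB proteins is a known feature of senescent fibroblasts.

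Promoter sequences are shown for 6 of the loci, because the sequence around a summit is what the antibody signal was centred on. As the summit of a peak served the centre of the stretch where its signal was highest. RefSeq promoter windows on GRCh38.p14, from 250 bases before to 50 bases after a gene start, held a summit for 119 of the 1472 loci, in 147 windows, and 68 of these windows held both the ICM and the senescent summit. Among the 53 such windows of protein-coding genes, EPHB1, EIF6 and VKORC1 had the highest peaks by mean rank. EPHB1 encodes an ephrin receptor, EIF6 a factor of ribosome assembly and VKORC1 the enzyme that recycles vitamin K. CDKN2A, which encodes the cell-cycle inhibitors p16INK4a and p14ARF and is a standard marker of senescence, is shown with them. Its window lies at the 5′ end of the whole gene span. Starts of its separate products were not assigned, so the window is not placed at the start of p16INK4a. ABHD14B, a hydrolase, and DAPK2, a kinase linked to cell death, are shown because their windows held the core of the CTCF motif and their loci held a CTCF peak in all 3 CTCF lists. Capitals mark the CCAAT box (letters CCAAT on either strand) or the CTCF core (CC, any 3 bases, AG, any base, then GGGC, on either strand), and a window without capitals held neither. Each window is written 5′ to 3′ on the strand of its gene.
EPHB1, chr3:134795010-134795309, plus strand: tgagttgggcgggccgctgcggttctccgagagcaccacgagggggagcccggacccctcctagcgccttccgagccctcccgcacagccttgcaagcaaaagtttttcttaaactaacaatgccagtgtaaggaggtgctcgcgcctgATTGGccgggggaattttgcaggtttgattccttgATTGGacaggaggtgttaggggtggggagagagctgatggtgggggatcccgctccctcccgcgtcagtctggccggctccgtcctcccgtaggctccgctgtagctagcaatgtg
EIF6, chr20:35284723-35285022, minus strand: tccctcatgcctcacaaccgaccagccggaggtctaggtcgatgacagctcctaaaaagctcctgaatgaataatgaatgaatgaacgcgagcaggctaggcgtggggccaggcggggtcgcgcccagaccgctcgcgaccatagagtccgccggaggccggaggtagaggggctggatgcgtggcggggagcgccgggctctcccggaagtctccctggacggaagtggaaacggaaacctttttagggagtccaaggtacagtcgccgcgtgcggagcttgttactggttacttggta
VKORC1, chr16:31094748-31095047, minus strand: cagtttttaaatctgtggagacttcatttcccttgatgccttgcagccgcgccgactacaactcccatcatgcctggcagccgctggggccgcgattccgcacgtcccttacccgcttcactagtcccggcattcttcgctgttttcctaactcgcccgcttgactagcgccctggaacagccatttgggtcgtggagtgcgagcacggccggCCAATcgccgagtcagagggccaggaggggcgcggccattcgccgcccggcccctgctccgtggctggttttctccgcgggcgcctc
CDKN2A, chr9:21995275-21995574, minus strand: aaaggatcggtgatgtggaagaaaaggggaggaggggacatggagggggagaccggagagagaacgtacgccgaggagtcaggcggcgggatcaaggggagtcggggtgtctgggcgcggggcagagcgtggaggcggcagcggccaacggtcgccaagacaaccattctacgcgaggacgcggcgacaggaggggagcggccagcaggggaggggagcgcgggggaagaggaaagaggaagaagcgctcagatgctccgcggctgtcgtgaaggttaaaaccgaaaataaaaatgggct
ABHD14B, chr3:51974000-51974299, minus strand: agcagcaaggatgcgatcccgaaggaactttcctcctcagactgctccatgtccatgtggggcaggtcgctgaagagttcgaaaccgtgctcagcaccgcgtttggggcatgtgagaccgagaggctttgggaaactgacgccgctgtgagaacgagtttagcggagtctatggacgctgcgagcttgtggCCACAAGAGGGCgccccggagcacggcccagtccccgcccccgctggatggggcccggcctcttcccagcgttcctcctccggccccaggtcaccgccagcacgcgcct
DAPK2, chr15:64046436-64046735, minus strand: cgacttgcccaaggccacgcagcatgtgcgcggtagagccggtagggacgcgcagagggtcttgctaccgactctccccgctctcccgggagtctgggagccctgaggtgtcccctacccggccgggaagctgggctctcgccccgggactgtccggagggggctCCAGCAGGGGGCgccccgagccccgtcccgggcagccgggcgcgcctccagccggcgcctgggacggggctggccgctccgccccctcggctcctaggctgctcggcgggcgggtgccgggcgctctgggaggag

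Counted from the gene start, with minus signs for bases before it, the ICM and senescent summits lay at 3 and 14 bp in the CDKN2A window, at -46 and -25 bp in the ABHD14B window and at -200 and -231 bp in the DAPK2 window. In the EPHB1 window they lay at -119 and -178 bp, in the EIF6 window at -114 and -250 bp and in the VKORC1 window at -49 and -144 bp. The windows shown were picked for holding both summits, so the closeness of the summits in them is fixed by the choice. By percentile of total signal in the ICM and senescent lists, DAPK2 had 35.4 and 3.58 and ABHD14B 25.2 and 22.6, so both were low. EPHB1 had 85.8 and 39.0, EIF6 55.8 and 66.2 and VKORC1 42.6 and 78.0. The EPHB1 locus also held a CTCF peak in all 3 CTCF lists.

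Most of the 1472 loci were simple pairs of peaks. There were 1459 loci of 1 ICM and 1 senescent peak, and 13 held 3 peaks. The loci had a median width of 1004 bp (quartiles 815.75 and 1252) against 992 bp over all SMC1 loci. The ICM peaks were narrower, with a median of 720.5 bp against 898 bp for the senescent peaks, and the ICM peak was the wider one in 359 loci (24.4%, 22.2 to 26.7). The ICM list was also the narrower one as a whole (median 754 bp against 1005 bp). The summits of the pair lay a median of 57 bp apart (quartiles 19 and 140). They were at most 50 bp apart in 687 loci (46.7%, 44.1 to 49.3), under 100 bp apart in 971 (66.0%, 63.5 to 68.4) and over 500 bp apart in 66 (4.48%, 3.48 to 5.67). In 801 loci (54.4%) the shorter peak lay wholly inside the longer one. The rule asked for an overlap of 1 bp, and nearly all pairs overlapped by much more.

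The control list was checked around each locus to show how close it came to the rule. The nearest control SMC1 peak lay a median of 24.2 kb away (quartiles 7.33 and 75.3). It lay within 1 kb at 87 loci (5.91%, 4.76 to 7.24), within 5 kb at 279 (19.0%, 17.0 to 21.1) and within 100 kb at 1181 (80.2%, 78.1 to 82.2). Loci held by the ICM list alone had a median of 27.9 kb and those held by the senescent list alone one of 26.2 kb, so the curves of these classes ran close together. Just inside the rule were a locus in ELF2, an ETS-family factor, 30 bp from a control peak, a locus in MAGI1, a junctional scaffold, 37 bp away, and a locus in RAI1, 80 bp away. Just outside it were loci of all 3 lists whose control peak overlapped the rest by 127 bp near PDE2A, by 169 bp in CLK3 and by 204 bp in CYTH4. The control peaks of these outside loci ranked at the 8.35th, 4.76th and 11.3th percentile of the control list. There were 3 loci within 100 bp of a control peak and 0 loci of all lists with a control overlap under 100 bp. The distance depended on how loci were built, with a median of 6.635 kb when 100 bp windows at the summits replaced whole peaks and of 10.5 kb with SMC1 lists of equal length.

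**Figure D1:**
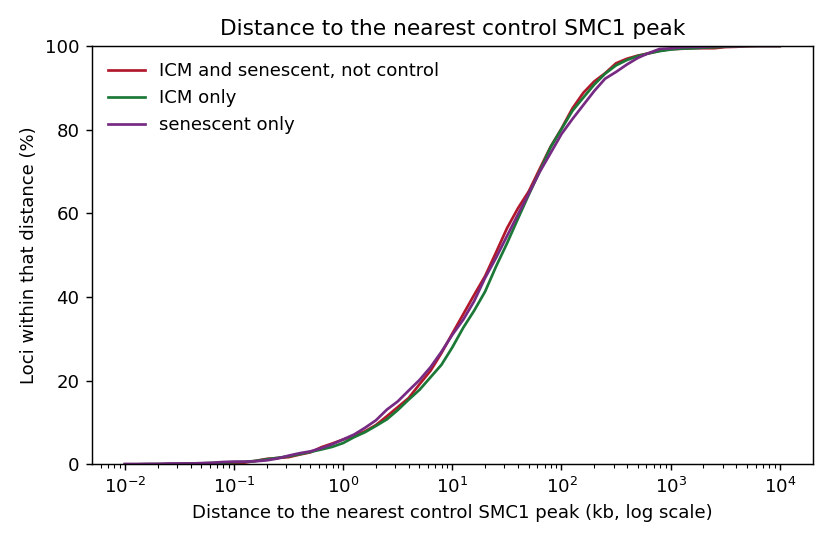
Share of loci (vertical axis, percent) whose nearest control SMC1 peak lies within the distance on the horizontal axis (kb, log scale). The red line, loci with ICM and senescent peaks and no control peak, has its median at 24.2 kb, on whole peaks, and runs close to the lines of loci held by the ICM list alone (27.9 kb) and by the senescent list alone (26.2 kb).

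Signal could be compared within a list and not between lists, because the files give no common scale. Each peak was therefore given its percentile of total signal (coverage summed over the peak) in its own list. The rule asked for absence from the control list, and these ranks describe the loci and support nothing further. The ICM peaks had a median percentile of 33.9 (95% interval of the median 32.4 to 35.4) and the senescent peaks one of 33.2 (31.6 to 35.6). In comparison, loci of all 3 lists had medians of 73.5 in the ICM list and 63.6 in the senescent list, loci of the ICM list alone 22.4 and loci of the senescent list alone 24.6. By total signal the 1472 loci thus ranked below the loci of all lists and above the loci of 1 list. By that measure they also ranked below loci of the control and ICM lists (ICM median 44.7) and of the control and senescent lists (senescent median 36.8). By the highest signal within a peak the 1472 loci had medians of 35.0 (ICM) and 40.1 (senescent). Those classes had 47.6 and 30.2, so the order in the senescent list was reversed. By mean signal (total over width) it was reversed as well, with 43.0 for the 1472 loci against 32.0. Loci of all 3 lists had 67.9 and 58.3 by the highest signal. Loci of the ICM list alone had 35.0 and loci of the senescent list alone 30.2. The ICM medians by the highest signal thus no longer separated the 1472 loci from the loci of the ICM list alone.

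**Figure D2:**
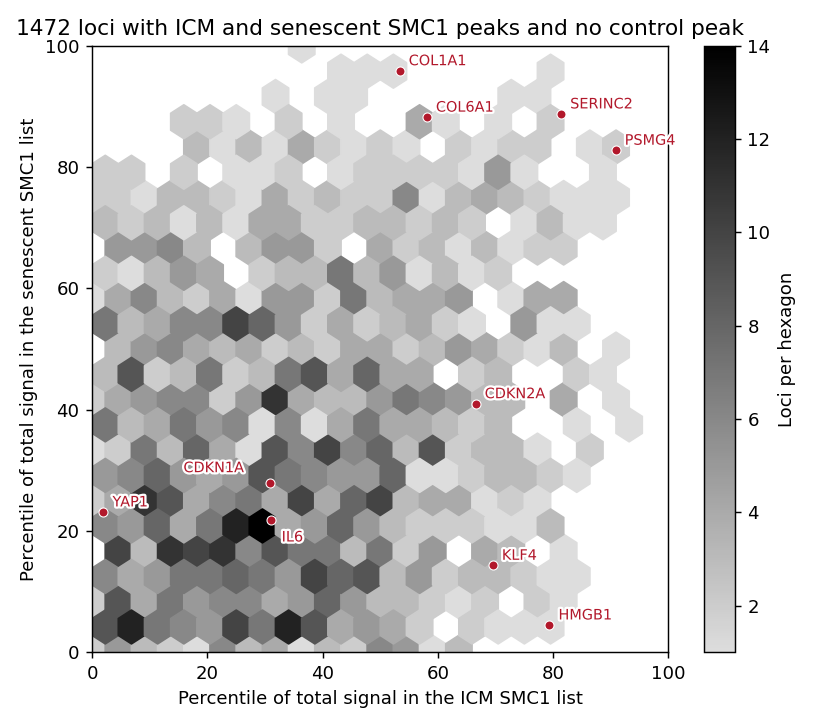
Percentile of total signal of the 1472 loci in the ICM SMC1 list (horizontal axis) and in the senescent SMC1 list (vertical axis), with the grey scale giving the number of loci per hexagon and red points marking loci named in the text. Most loci lie below the middle of both lists, and 12 lie above the 75th percentile of both.

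High rank in 1 list often came without high rank in the other. Of the loci, 393 lay above the 50th percentile of the ICM list, 442 above that of the senescent list and 158 (10.7%) above both. There were 12 above the 75th percentile in both lists and 0 above the 90th in both. Both peaks lay below the 25th percentile in 227 loci (15.4%). The ICM percentile was the higher one in 750 loci and the senescent one in 722. The lists differ in length, so this split is a description and does not compare the conditions. With lists of equal length by total signal the medians were 48.5 (ICM) and 37.7 (senescent), and the split was not counted there. Across these loci Spearman's rho between the percentiles was 0.17 for total signal and 0.46 for the highest signal. For total signal it was 0.55 across the 8247 loci of all 3 lists, 0.38 across the loci of the control and ICM lists and 0.17 across those of the control and senescent lists. These are correlations over loci of the same libraries, which are not independent replicates, and the choice of loci narrows their range.

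The same pattern was visible from the side of the lists. Peaks in the 1472 loci made up 8.33% of the ICM list and 11.4% of the senescent list. With the ICM list cut into 10 equal parts (deciles) from the lowest total signal up, their share was 11.7% (10.2 to 13.3) in the lowest and 12.9% (11.3 to 14.5) in decile 4, and it was 1.97% in decile 9 and 0.224% (4 of 1782 peaks, 0.0612 to 0.574) in the top one. In the senescent list it was 16.4% (14.5 to 18.6) in the lowest, 18.2% (16.1 to 20.4) in the next and 0.774% (10 of 1292 peaks, 0.372 to 1.42) in the top one.

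**Figure D3:**
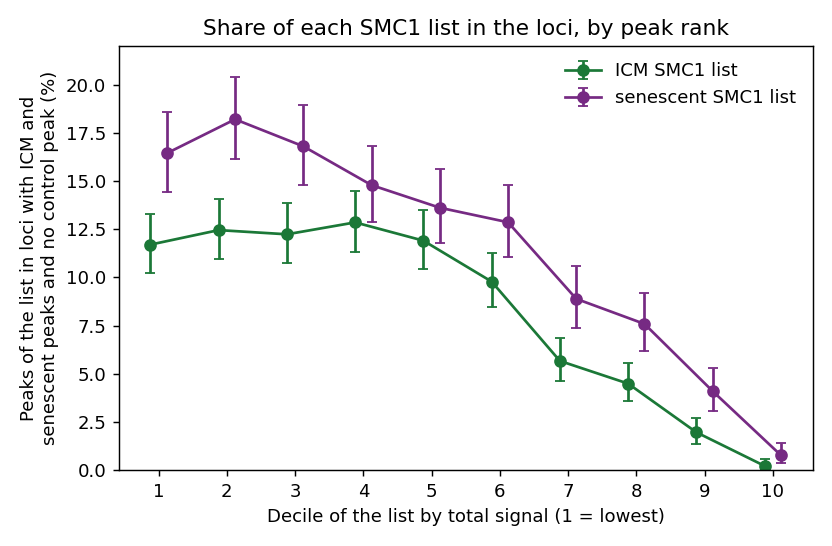
Share of the peaks of the ICM list (green) and of the senescent list (purple) that belong to the 1472 loci (vertical axis, percent), by decile of the list from the lowest total signal (1) to the highest (10), with exact 95% intervals as bars. In the ICM list the share stays between 11.7% and 12.9% over the lowest 5 groups and ends at 0.224%, and in the senescent list it goes from 16.4% to 0.774%.

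Position in the genome was not part of the rule. A locus was counted at a promoter when at least 1 summit was at most 1 kb away from an annotated 5′ end, and 196 of the 1472 loci did so (13.3%, 11.6 to 15.2), against a background of 32.1% over all SMC1 loci. With 100 bp windows at the summits in place of whole peaks the share was 22.1%, and no share over all loci is given for that setting. On whole peaks it was 37.9% for loci of the control and ICM lists, 44.5% for those of the control and senescent lists, 42.1% for those of all 3 lists and 46.5% for those of the control list alone. It was 12.3% (11.3 to 13.3) for loci of the ICM list alone and 17.1% (15.6 to 18.8) for loci of the senescent list alone. The low promoter share was therefore common to all 3 classes without a control peak. At 5′ ends of protein-coding genes lay 149 loci (10.1%) against 27.5% of all loci. Elsewhere within a protein-coding gene lay 665 loci (45.2%, 42.6 to 47.8) against 37.2%, and outside any annotated gene 448 (30.4%, 28.1 to 32.9) against 22.5%. The median distance to the nearest 5′ end of a protein-coding gene was 29211 bp, against 15923.5 bp over all loci. Exons and introns were not assigned, since the gene table gave only the span of each gene.

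**Figure D4:**
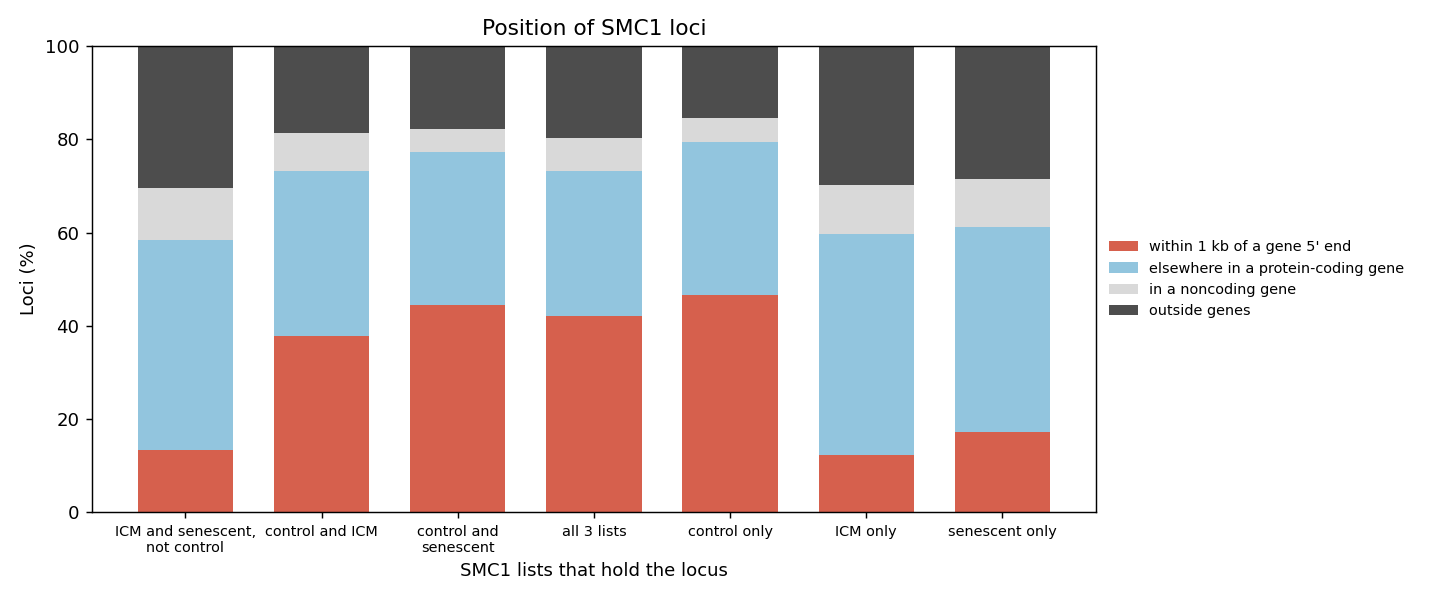
Position of SMC1 loci (vertical axis, percent of the loci of a class) by the SMC1 lists that hold them, as stacked bars. The 3 classes without a control peak have 12.3% to 17.1% of loci within 1 kb of a 5′ end, and the 4 classes with a control peak 37.9% to 46.5%.

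The loci were spread over the genome. Their share of all SMC1 loci ranged from 2.39% (6 of 251, 0.882 to 5.13) on chromosome X and 4.67% (3.27 to 6.43) on chromosome 4 to 7.59% (6.04 to 9.38) on chromosome 9 and 7.76% (5.72 to 10.2) on chromosome 22. Neighbouring loci of the set were a median of 662 kb apart, and 129 of 1449 neighbouring pairs lay within 50 kb. CACNA1C, which encodes a calcium channel subunit, held 4 of the loci in its 727 kb, among 19 SMC1 loci in all. A further 8 protein-coding genes held 3 each, namely ARHGAP35, FGGY, KCNMA1, NAV2, PRKCA, PRKCE, SLC8A1 and SMG6. PRKCA held its 3 among 7 SMC1 loci and ARHGAP35 among 6, and KCNMA1 its 3 among 22. Of 19970 protein-coding genes, 805 (4.03%) held at least 1 locus of the set in the body or at the 5′ end and 161 (0.806%) at the 5′ end, against 49.4% and 35.7% for all SMC1 loci.

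CTCF was measured in other libraries and was not used by the rule. A control CTCF peak overlapped 191 of the 1472 loci (13.0%, 11.3 to 14.8) against a background of 19.0% over all SMC1 loci. An ICM CTCF peak overlapped 319 loci (21.7%, 19.6 to 23.9) against 26.7%, and a senescent CTCF peak 418 loci (28.4%, 26.1 to 30.8) against 26.6%. The senescent share was therefore 15.4 percentage points above the control share at these loci (a ratio of 2.19), and 7.59 points above it over all SMC1 loci (a ratio of 1.40). A ratio above that of all loci was also found at loci of the ICM list alone (2.65) and of the senescent list alone (2.47), where the shares themselves were lower. The CTCF lists differ in length, and this moved with the shares. When each CTCF list was limited to its 4673 peaks of highest total signal, the shares were 13.0%, 14.5% (12.7 to 16.4) and 17.9% (15.9 to 19.9) in control, ICM and senescent cells, against 19.0%, 19.9% and 17.4% over all loci. The order of the conditions at the 1472 loci was kept, with a smaller distance between them.

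**Figure D5:**
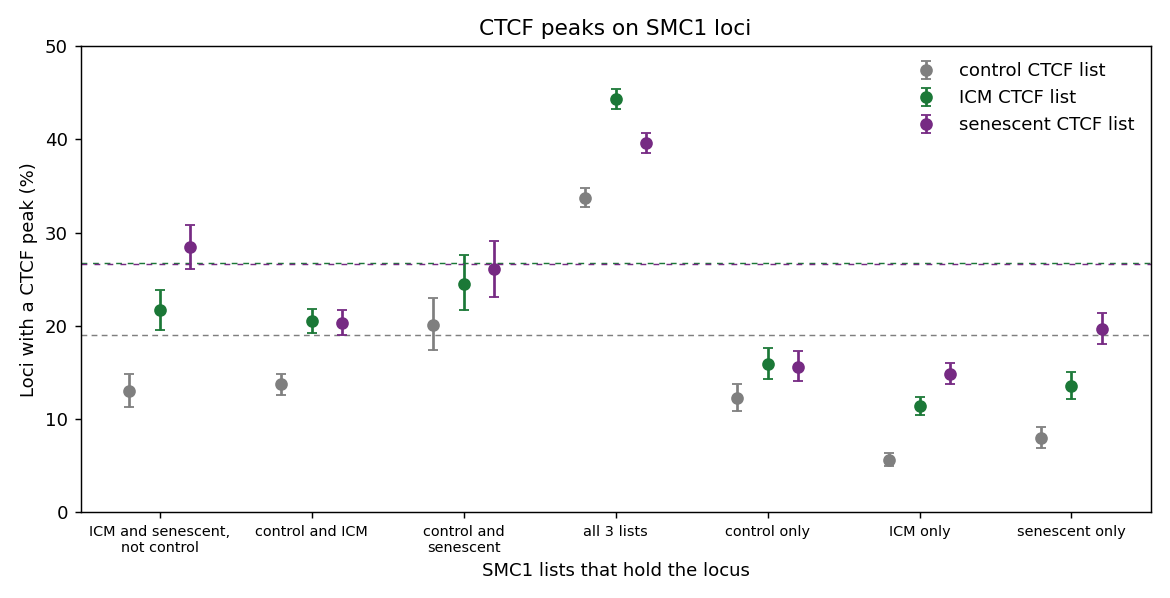
Share of SMC1 loci that overlap a CTCF peak (vertical axis, percent) in the control (grey), ICM (green) and senescent (purple) CTCF lists, by the SMC1 lists that hold the locus, with exact 95% intervals as bars and dashed lines for all SMC1 loci. At loci with ICM and senescent SMC1 peaks and no control peak, shown on the left, the shares are 13.0%, 21.7% and 28.4%.

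The CTCF lists were then combined at each locus. At 1010 of the 1472 loci (68.6%, 66.2 to 71.0) no list held a CTCF peak, and 462 (31.4%) had one in at least 1 list, against a background of 32.8%. A CTCF peak stood in all 3 lists at 168 loci (11.4%, 9.83 to 13.1) against 16.3%. In the ICM and senescent CTCF lists but not in the control one it stood at 109 loci (7.40%, 6.12 to 8.86) against 4.55%, the same pattern of lists as that of SMC1. The senescent list alone held one at 132 loci (8.97%, 7.56 to 10.5) against 5.17%, and the ICM list alone at 30 (2.04%) against 4.04%. Loci with a CTCF peak in control cells but in neither of the others numbered 2.

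CTCF peaks were ranked within their own lists, which differ in length, so the percentiles are descriptions and are not compared between conditions. Over all SMC1 loci with a CTCF peak the median percentile was 53.5 in the control list, 54.7 in the ICM list and 60.7 in the senescent list. Where CTCF stood in all 3 lists, its median percentile was 41.1 in the control list, 63.7 in the ICM list and 75.5 in the senescent list. At the 109 loci with ICM and senescent CTCF the medians were 23.6 and 46.6, and at the 132 loci with senescent CTCF alone the median was 33.8. The loci with CTCF absent in control were not near a control CTCF peak as a rule. The nearest one lay a median of 125 kb from the 109 loci, with 3 of them within 1 kb, and 75.3 kb from the 132 loci, with 4 of them within 1 kb.

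CTCF overlap varied with position and rank. At the 196 promoter loci the shares were 12.2% (8.01 to 17.7), 22.4% (16.8 to 28.9) and 17.9% (12.8 to 23.9) in control, ICM and senescent cells, and at the 1276 other loci 13.1% (11.3 to 15.1), 21.6% (19.3 to 23.9) and 30.0% (27.5 to 32.6). Over all SMC1 loci the shares were 24.2%, 33.6% and 25.3% at promoters and 16.6%, 23.4% and 27.2% elsewhere. The senescent share was thus the highest of the 3 away from promoters and the ICM share at promoters, both at the 1472 loci and over all SMC1 loci. Of the 132 loci with senescent CTCF alone, 3.03% were promoter loci, and of the 30 with ICM CTCF alone, 33.3%. By the mean of the ICM and senescent SMC1 percentiles, the senescent CTCF share was 25.1% below 25 (423 loci), 28.6% from 25 to 50 (728 loci), 31.0% from 50 to 75 (294 loci) and 48.1% (28.7 to 68.1) above 75 (27 loci). Over all SMC1 loci it was 17.6%, 22.9%, 28.9% and 49.5%, with the mean taken over whichever lists held the locus, control included. The ranges of all loci are therefore not quite the same measure. The distance from all loci was widest in the lowest range and was not there in the highest. In the lowest range, loci of the control and senescent lists had 28.4% and those of the control and ICM lists 17.5%.

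The loci of highest mean percentile of total signal, which also grows with peak width, are described first. One at chr6:3246455-3248041 lay 7122 bp upstream of PSMG4, a chaperone of proteasome assembly. It had 8637 in the ICM list (90.8) and 6500 in the senescent list (82.8), with no CTCF peak. By highest signal its peaks ranked at 90.3 and 65.4. The loci of this group were chosen for high total signal, so their high percentiles are fixed by the choice.

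A locus at chr11:1997838-2001106 lay within the spans of H19, an imprinted noncoding RNA, and MRPL23, a mitochondrial ribosomal protein gene, 1406 bp from the 5′ end of H19. Its total signal was 7948 in the ICM list (88.7) and 6640 in the senescent list (83.7), and by highest signal its peaks ranked at 28.6 and 30.2. CTCF peaks of high rank lay on it in all 3 lists (99.2, 99.5 and 97.9), and a control SMC1 peak lay 0.821 kb away, so that this locus was close to cohesin in control cells as well. A locus at chr3:109532120-109533244 was the opposite case. It lay 192.852 kb upstream of DPPA4, a gene of pluripotent cells, and 942.187 kb from the nearest control SMC1 peak. It had 8174 in the ICM list (89.4) and 6140 in the senescent list (80.1), with CTCF in the ICM (69.4) and senescent (45.0) lists and none in control.

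Further loci of this group also held CTCF peaks in all 3 lists. One at chr12:53047642-53049697 in TNS2, a focal adhesion protein, had 5799 in the ICM list (76.3) and 8808 in the senescent list (92.6). By highest signal the TNS2 peaks ranked at 16.3 and 20.4. One at chr20:64285622-64286418, 30.305 kb downstream of the 5′ end of PCMTD2, had 7306 (86.0) and 6396 (82.0), and its CTCF peaks ranked at 94.0, 98.8 and 99.9. At chr19:17869496-17871160, 1509 bp upstream of SLC5A5, the sodium iodide symporter, the SMC1 percentiles were 73.3 and 90.1, and a CTCF peak stood in the senescent list alone (34.2). Loci of the group without a CTCF peak were the promoters of SERINC2 and SLC16A13, described next, and loci 15.850 kb upstream of OR1F1 (90.4 and 77.4), 35.159 kb upstream of CYP2U1 within the span of SGMS2 (79.4 and 82.5) and 71.294 kb upstream of GTF3A (88.6 and 72.4).

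Among protein-coding promoters, SERINC2 and SLC16A13 ranked highest. SERINC2, a member of a family linked to serine incorporation into lipids, had a locus at chr1:31409468-31411330 with a total signal of 6468 in the ICM list (81.4) and 7635 in the senescent list (88.8). The summits in SERINC2 lay 1297 bp apart, so the signals peaked at different positions of 1 broad region. Counted from the gene start, the ICM summit lay at 1323 bp and the senescent one at 26 bp. Only the senescent summit was therefore within 1 kb of this start. SLC16A13, of the monocarboxylate transporter family, had 6041 (78.4) and 7268 (87.1) at chr17:7035493-7036697, with summits 145 bp apart. INSRR, a receptor of the insulin receptor family, had 5260 (71.0) and 7193 (86.6), with CTCF in the ICM and senescent lists only (12.3 and 53.8). COL6A1, a collagen VI chain, had 4327 (58.1) and 7514 (88.3) at chr21:45981730-45983757. By highest signal COL6A1 ranked at 1.39 and 20.4 and INSRR at 10.9 and 65.4. By the same measure SERINC2 ranked at 53.5 and 40.1 and SLC16A13 at 67.9 and 76.9. A control peak lay 143 bp from the COL6A1 locus, so its absence from the control list rests on a short gap.

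The other protein-coding promoters described here had percentiles between 52.2 and 82.8 in the ICM list and between 73.6 and 83.1 in the senescent list. By highest signal they ranked at 0.357 and 40.1 (RALGDS), 10.9 and 30.2 (ZGPAT) and 22.3 and 11.8 (CCNL2). APOL2 ranked higher by that measure (53.5 and 76.9), as did APOBEC3C (53.5 and 58.3). CCNL2, a cyclin linked to splicing, APOL2, an apolipoprotein L, and RALGDS, an activator of Ral GTPases, held CTCF peaks in all 3 lists. ZGPAT and APOBEC3C, a cytidine deaminase, held none. APOBEC3C had 4631 in the ICM list (62.9) and 6089 in the senescent list (79.6), with both summits at the same position 7 bp after the 5′ end, and no control peak for 142.642 kb.

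Where the control CTCF list alone lacked a peak, DPPA4 and INSRR were followed by loci near NANOS3, RHPN1, PLB1 and H2BC13. The locus near NANOS3, at chr19:13833276-13834736, lay 2870 bp from the microRNA gene MIR27A and had SMC1 percentiles of 74.2 and 79.7, with CTCF at 11.8 in the ICM list and 22.4 in the senescent list. The locus near RHPN1 had 73.8 and 74.9, with CTCF at 95.2 and 94.1, the highest CTCF ranks of these 6 loci in both lists, and a control SMC1 peak 0.428 kb away. The locus in PLB1 had CTCF at 39.6 and 66.3, and the one 120.255 kb downstream of the 5′ end of H2BC13, a histone gene, at 5.23 and 42.0. CTCF was thus of very unequal rank at cohesin loci that were chosen for high mean rank by total signal. By highest signal the SMC1 peaks of these loci were unequal too. They ran from 10.9 (INSRR) to 86.3 (DPPA4) in the ICM list and from 49.7 (NANOS3 and H2BC13) to 89.6 (DPPA4) in the senescent list. With CTCF in all 3 lists, H19, TNS2 and PCMTD2 were followed by loci 18.881 kb upstream of RNASE12 (76.3 and 81.7) and 24.099 kb upstream of WNK2 (73.4 and 84.2).

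Gene groups linked to senescence and to fibroblasts were then searched for these loci, counting a gene when its span, or the 1 kb around its 5′ end, contained a summit. For every group the background is 6.52% of all SMC1 loci, and 4.03% of all protein-coding genes. Of 41 extracellular matrix genes, 7 held a locus of the set, and these were 7 of the 113 SMC1 loci in the group (6.19%), next to 6.52% of all SMC1 loci. Collagen I chain COL1A1 had the highest value, with 4058 in the ICM list (53.4) and 10568 in the senescent list (95.9) at chr17:50194861-50198837, 4.652 kb from its 5′ end. The senescent peak was 3977 bp wide with a highest signal of 6 (percentile 5.35), so its high total signal went with its width. CTCF stood there in all 3 lists, and a control SMC1 peak 0.913 kb away. COL6A1, described above, was the only gene of the group with a locus of the set at its own 5′ end. COL5A1 had 55.5 and 56.8 deep within the gene, and THBS1, thrombospondin, 43.5 and 57.7. COL6A2 had 4.69 and 6.05, and LTBP1, which binds latent TGF-beta, 7.06 and 20.7.

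Of 36 genes of the senescence-associated secretory phenotype, 2 held a locus of the set, among 40 SMC1 loci in the group (5%, next to 6.52% of all SMC1 loci). IL6, the interleukin most often followed in senescence, had 3186 in the ICM list (31.0) and 3227 in the senescent list (21.8) at chr7:22730970-22731685, 4.238 kb from its 5′ end. Its highest signal was 16 in each list, which ranked at 53.5 and 81.3. An SMC1 locus of any class was held by 21 of the 36 genes, next to 49.4% of all protein-coding genes. The genes without one included IL1A, IL1B, CXCL8, MMP1 and MMP3.

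Of 22 genes of cell-cycle arrest by p53 and RB, 2 held a locus of the set, among 24 SMC1 loci (8.33%, next to 6.52% of all SMC1 loci). CDKN2A had 4893 in the ICM list (66.6) and 3774 in the senescent list (41.0) at chr9:21994323-21996288, over the 5′ end whose sequence is printed above. The highest signal of the CDKN2A peaks was 8 in the ICM list and 7 in the senescent list (6.66 and 11.8), so that the peaks were broad and low. No CTCF list held a peak there, and the nearest control SMC1 peak lay 12.377 kb away. A second locus in CDKN2A, at chr9:21974441-21975274, lay 20394 bp from that 5′ end and was held by the senescent list alone (11.6). Which product of the gene starts at either locus was not assigned. CDKN1A, which encodes p21, had 3182 (30.9) and 3376 (27.9), 9.966 kb from its 5′ end, with CTCF in the ICM list alone (42.5). PDGFRA, a receptor of fibroblasts, gave 3 SMC1 loci, and all of them were held by all 3 lists.

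Of 40 genes of the actin cytoskeleton and mechanosensing, 6 held a locus of the set, among 131 SMC1 loci (4.58%, next to 6.52% of all SMC1 loci). YAP1, the coactivator of the Hippo pathway, had 1.96 in the ICM list and 23.2 in the senescent list 0.163 kb from its 5′ end, and ANKRD1, a YAP target, 11.7 and 29.0 at 0.297 kb. A control peak lay 0.379 kb from the YAP1 locus. SRF, a factor of actin-responsive genes, had 38.5 and 44.9, with CTCF in all 3 lists (98.0, 99.5 and 97.7) and a control peak 0.497 kb away. ACTN1 (36.7 and 3.13), ACTN4 (46.5 and 11.5) and ITGB5 (29.3 and 29.5) held their loci away from the 5′ end.

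The remaining groups held few or none. Of 26 AP-1 and immediate early genes, FOSL1 (23.8 and 29.7) and KLF4 (69.5 and 14.4) held a locus of the set, among 45 SMC1 loci (4.44%). The FOSL1 locus lay 0.151 kb from a control peak, with CTCF of high rank in control (99.8) and ICM (99.9) cells and none in the senescent list. Of 29 growth factor receptor and TGF-beta genes, INSR (31.4 and 34.1) and SMAD6 (42.4 and 19.6) did, among 75 loci (2.67%). Of 26 HMG, lamin and heterochromatin genes, HMGB1 did, among 31 loci (3.23%). HMGB1 is a protein that ICM binds, and its locus had 6174 in the ICM list (79.4) and 2872 in the senescent list (4.51), 47.444 kb from its 5′ end. By highest signal the same peaks ranked at 93.2 and 81.3, so the wide gap was one of total signal. There were 0 loci of the set in the 28 cell cycle genes (20 SMC1 loci), the 20 genes of the CTCF and cohesin machinery (18), the 30 lung mesenchyme factors (63) and the 30 ribosomal protein genes (26). Of the marker lists, COL1A1 among the fibroblast genes and VWF among the endothelial ones (18.5 and 53.8) held one, and 0 of the epithelial and immune genes did. With 6.52% of all SMC1 loci in the set, groups of this size would hold few of them. Nothing is read from these counts beyond the loci themselves.

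Motifs in the promoter windows were counted on both strands. The CTCF core was in 12 of the 147 windows with a summit of the set (8.16%, 4.29 to 13.8), in 6.997% of the windows with any SMC1 summit and in 3.91% of all 34961 windows. The 12 windows belonged to 9 loci, of which 3 held CTCF peaks in all 3 lists and 6 held none. The AP-1 letters TGANTCA were in 8.16% of the windows of the set, 5.39% of those with any SMC1 summit and 7.68% of all. The GC box (GGGCGG) was in 68.0% (59.8 to 75.5), 74.8% and 45.0%, and the CCAAT box in 29.3% (22.05 to 37.3), 42.5% and 34.6%. The TEAD letters GGAATG were in 17.0% (11.3 to 24.1), 11.1% and 14.0%, and the E box CACGTG in 4.76% (1.94 to 9.57), 10.3% and 7.27%. The CTCF core and GC box can share letters. A match describes these windows only.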

How the data were processed

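CTCF and SMC1 CUT&Tag peak lists of control, ICM-treated and senescent IMR90 cells were used, 1 library per group. Per the submitters' processing notes the tools were Bowtie2 2.3.4.1, Picard 2.20.7, deepTools and SEACR 1.3, and the study's methods name hg38. The deposited lists are marked as stringent SEACR calls of the top 1% for each library. For CTCF the study's results name the same top 1% with a filter on the motif. Its methods give a false discovery rate and that filter. Motifs under CTCF peaks were not examined here. The authors deposited for each peak its total and highest signal, which were whole numbers throughout and share no scale between lists. The 1 mitochondrial peak of each list was left out. Depth is unknown, and the intervals reflect only the number of loci, peaks or windows counted and give no precision about a condition.

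Loci, summits, promoters and ranks were computed with Python 3.11.15, pandas 2.3.3 and scipy 1.17.1, and the code was tested on simulated lists. Percentiles are (rank − 0.5)/n within a list, and the highest peak of a locus counts. Genes came from RefSeq on GRCh38.p14, with a strand for 47054 of 59094 genes (79.6%), taken from RefSeq promoter windows or by symbol from GENCODE, and promoter counts leave out the rest. Nothing was tested between conditions. The set, the gene lists and all choices were made with earlier results of these data known. Named loci were the 12 of highest mean percentile, the 10 highest at protein-coding promoters, the 6 highest with CTCF in ICM and senescent cells only, the 6 highest with CTCF in all lists, those in listed genes and those nearest the limit of the rule. A few loci that these rules select are not reported here. The 9 genes with 3 or more loci of the set were named after their counts were seen.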

Additional observations from a re-analysis of the deposited data

How the results depend on the processing

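Shares and medians depended on how loci were built. With 100 bp windows at the summits in place of whole peaks there were 1523 loci, 5.51% of all, with CTCF shares of 21.3%, 30.1% and 33.0% in control, ICM and senescent cells, a promoter share of 22.1%, median percentiles of 42.7 (ICM) and 42.4 (senescent) and a median distance of 6.635 kb to a control peak. With only the peaks above the 50th percentile of the ICM and senescent lists there were 158 loci (0.967%), by construction of higher rank, with CTCF shares of 18.4%, 29.1% and 32.9%, a promoter share of 15.8% and medians of 63.7 and 68.3. Lists of equal length by total signal gave 1199 loci, medians of 48.5 and 37.7 and a distance of 10.5 kb, and by highest signal 1060 loci (5.32%), a promoter share of 11.5%, medians of 46.0 and 36.4 and a distance of 15.6 kb. Merging peaks up to 1 kb apart gave a distance of 28.4 kb, and asking for no control peak within 5 kb gave 1193 loci (5.28%) and 37.2 kb. CTCF summits within 250 bp gave an ICM share of 18.5% (22.7% over all SMC1 loci), and CTCF lists of equal length gave 14.5% (ICM) and 17.9% (senescent). The promoter share was 30.1% within 5 kb (45.9% over all SMC1 loci) and 10.1% for protein-coding genes only (27.5%). Ranking by highest and by mean signal gave senescent medians of 40.1 and 43.0. The other shares, medians and distances stayed within the intervals of the reported values. The order of CTCF shares from control to senescent held under each of the settings that give a CTCF share. Beyond their construction, the cause of these shifts was not tested. No paired analysis was possible because each group had 1 library. Unknown depth limits what absence from the control list shows.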
